A study of Mus musculus with 6 samples.

Results

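The genes described here are 39 that mark endothelial cells or build the contacts between them: 8 transcription factors, 14 proteins of cell junctions, and 17 other surface or secreted proteins. They are a list of names, chosen with earlier results of these data known, and were found as every probe set whose platform annotation gave exactly 1 gene symbol equal to one of the 39. This gave 79 of 45037 probe sets and all 39 genes, of 18193 genes measured under a name. Where a gene had several probe sets their values were averaged. The 2 groups were endothelial cells harvested from Matrigel plugs that held recombinant MFAP5 (microfibrillar-associated protein 5), which cells secrete into the microfibrils of elastic tissue, and endothelial cells from Control plugs without it, with 3 arrays (Affymetrix mouse) per group and 1 sample on each. The plugs of both groups, gels of basement membrane protein, had been implanted intraperitoneally in nude mice of the Balb/c background. Nude mice lack a thymus and most T cells, and keep B cells, NK cells and myeloid cells. The labels give no age or sex, do not say how endothelial cells were separated, and call the samples independent without saying that each came from its own animal, so p-values measure the spread between these samples. The deposited values were centred on the median of each probe set over the 6 arrays. A value of 0 is therefore the middle of the 6 arrays and not an absence of signal, levels of different genes cannot be compared, and whether the endothelial markers stood above those of other cells in any sample could not be checked.

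Endothelial cells line blood and lymph vessels. Their identity rests on ETS-family factors (ERG, FLI1, ETS1), SoxF factors (SOX7, SOX17, SOX18) and TAL1, and PROX1 turns them towards the lymphatic type. Neighbouring cells are joined by adherens junctions, in which VE-cadherin binds catenins, by tight junctions of claudin-5, occludin, JAM proteins and ZO-1, by PECAM1, and by gap junction channels made of connexins. Surface glycoproteins and G protein-coupled receptors on the same cells respond to flow, lipids and peptides, and sprouting vessels loosen and rebuild these contacts.

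With all 6 arrays, limma called none of the 39 genes higher or lower at an adjusted p under 0.05, while it called 3.55% of all genes, 0.759% higher and 2.79% lower. Differences are MFAP5 minus Control on the log2 scale throughout. At an unadjusted p under 0.05 there were 10 lower genes, 25.6% of the 39, against 14.4% of all genes, and 2 higher, 5.13% against 5.33%. The 3 MFAP5 values lay wholly below the 3 Control values in 11 genes, or 28.2%, against 17.8% of all genes, and wholly above them in 1, or 2.56%, against 6.51%. A lower mean with MFAP5 was found for 27 of the 39, or 69.2%, against 65.6% of all genes. The median difference was -0.11 for the 39 and -0.079 for all genes. The largest differences were those of Pecam1 (-0.71), Gja1 (0.69), Plvap (-0.67) and Ramp2 (-0.62), or 1.64-fold lower, 1.62-fold higher, 1.59-fold lower and 1.54-fold lower. In bulk RNA, fewer endothelial cells and less RNA per cell cannot be told apart.

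**Figure D1:**
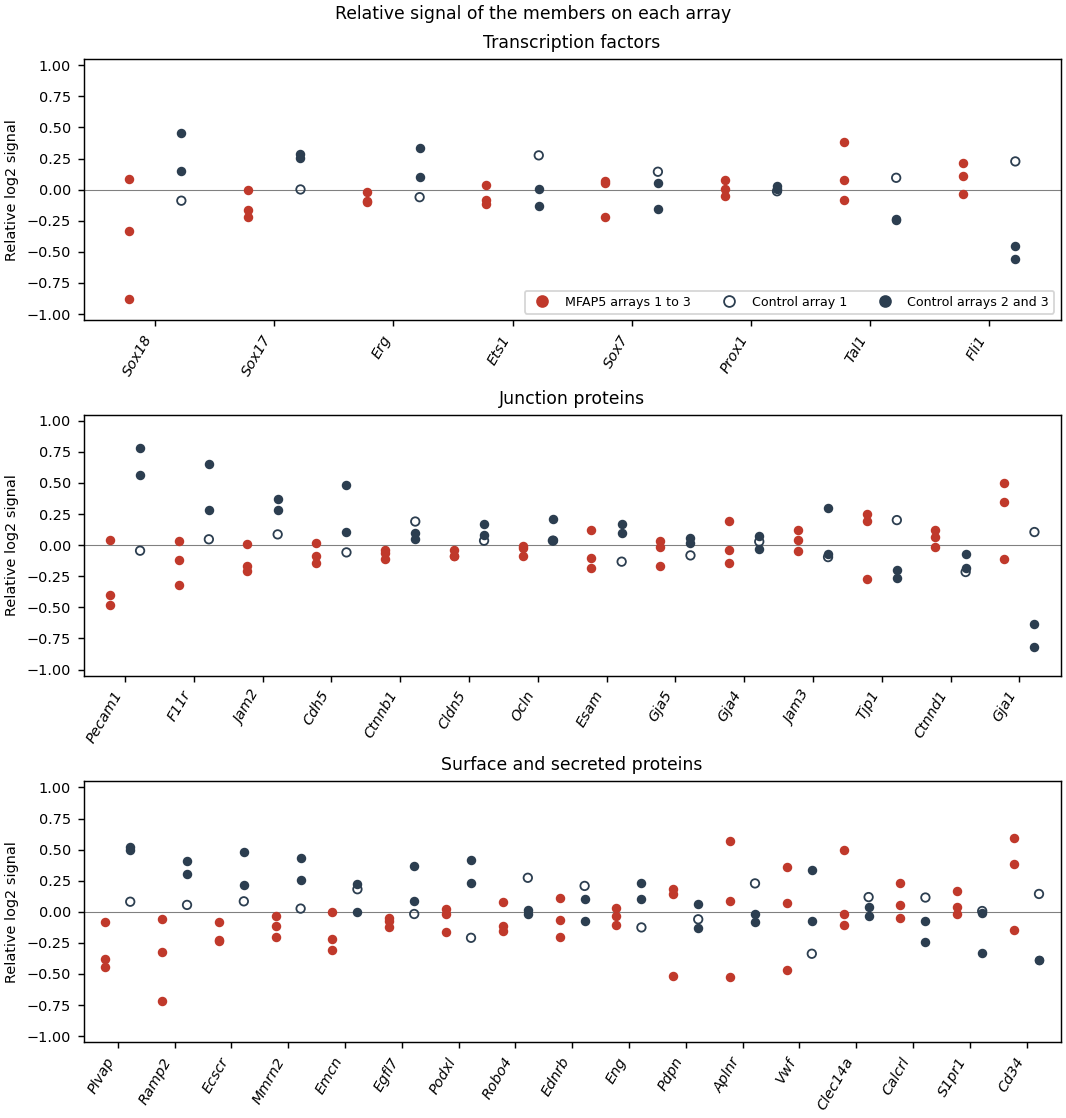
Relative log2 signal of the 39 genes on each array, in 3 panels by role, with MFAP5 arrays (red) left of Control arrays (dark, array 1 open) for each gene and genes ordered by their difference. Control arrays 2 and 3 are the top 2 points for 16 genes, Pecam1, Plvap and Ramp2 among them, and the bottom 2 for Tal1, Fli1, Gja1, Calcrl and Cd34, while Control array 1 lies nearer the MFAP5 mean than the mean of the other controls in 30 of 39 genes.

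The calls differed with and without Control array 1. Its correlation with Control arrays 2 and 3 over probe sets was -0.028 and 0.020, where arrays 2 and 3 correlated at 0.69 with each other. The bacterial hybridization spike-ins averaged -0.038, -0.0078 and -0.0065 on the MFAP5 arrays and -0.32, 0.64 and 0.65 on Control arrays 1, 2 and 3, on the relative log2 scale. In 30 of the 39 genes, or 76.9%, Control array 1 was nearer the MFAP5 mean than the mean of the other 2 controls, against 62.8% of all genes. Control arrays 2 and 3 together lay above all 4 other arrays in 16 of the 39 genes and below them in 5, which makes 53.8%, against 43.9% of all genes. Without Control array 1, limma called 10 of the 39 genes, 25.6%, against 14.7% of all genes: 8 were lower (20.5%, against 10.5%) and 2 higher (5.13%, against 4.18%). With either Control array 2 or 3 left out it called none, while it called 1.35% and 1.2% of all genes. The smallest adjusted p of the 39 by limma was 0.208 without Control array 2 and 0.225 without Control array 3. Among the fits with a single array left out, any of the 39 was called only without Control array 1. The calls given below for that fit hold for it alone among these. At an unadjusted p under 0.05 there were 5 of the 39 without Control array 2 and 7 without Control array 3. These were 12.8% and 17.9%, against 12.5% and 11.9% of all genes. With Control array 1 as the sole control none of the 39 was called and 1, or 2.56%, had an unadjusted p under 0.05. In that fit no gene at all was called, and 1526 genes, 8.39%, had an unadjusted p under 0.05. The spread of Control array 1 was then assumed to be that of the MFAP5 arrays. The part of the spike-in level in these differences was tested only as a covariate, with which none of the 39 was called, against 2% of all genes. With it 9 of the 39, or 23.1%, had an unadjusted p under 0.05, against 15.2% of all genes.

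**Figure D2:**
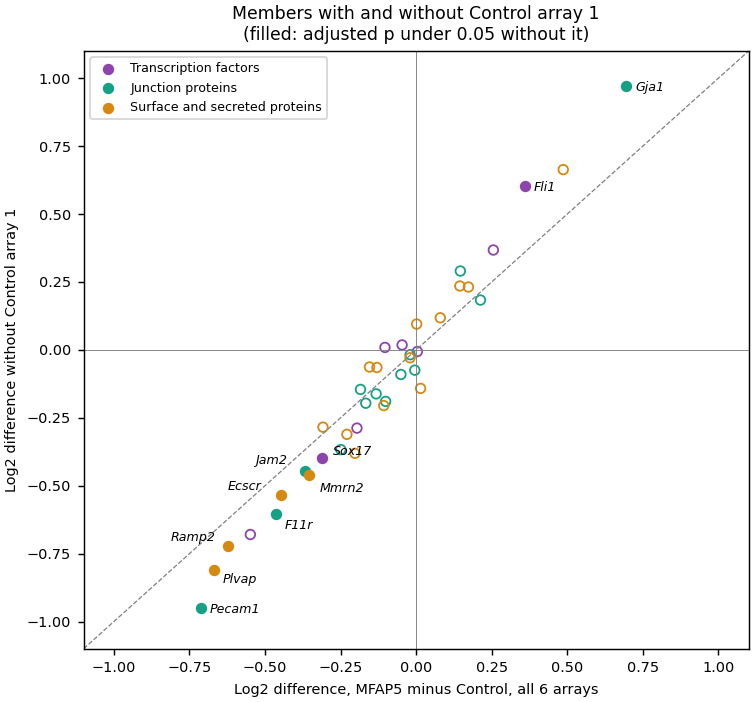
Log2 difference, MFAP5 minus Control, of each of the 39 genes without Control array 1 (vertical axis) against that with all 6 arrays (horizontal axis), with a dashed line of equality and colours by role. The 10 filled and named points passed the threshold without that array, from Pecam1 at -0.95 to Gja1 at 0.97, and lie farther from 0 than with all 6 arrays.

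Promoter windows are printed for the 4 genes with an unadjusted p under 0.05 that had a single start in the RefSeq promoter table (GRCm38.p6), 2 of them with lower values with MFAP5 (F11r and Emcn) and 2 with higher ones (Gja1 and Cd34). Each runs 5′ to 3′ on the plus strand over 250 bases before and 50 after the start of the gene. Capitals mark matches, on either strand, to an ETS core (AGGAAG or CGGAAG) or a SOX core (ACAAT or ACAAAG), the kinds of site bound by factors of the set.
F11r, chr1:171437311-171437610: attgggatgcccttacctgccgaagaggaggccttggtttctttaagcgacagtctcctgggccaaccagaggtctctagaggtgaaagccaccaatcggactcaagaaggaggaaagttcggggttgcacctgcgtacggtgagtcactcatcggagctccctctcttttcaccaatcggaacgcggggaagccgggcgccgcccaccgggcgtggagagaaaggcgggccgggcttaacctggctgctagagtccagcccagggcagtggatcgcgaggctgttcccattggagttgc
Emcn, chr3:137340828-137341127: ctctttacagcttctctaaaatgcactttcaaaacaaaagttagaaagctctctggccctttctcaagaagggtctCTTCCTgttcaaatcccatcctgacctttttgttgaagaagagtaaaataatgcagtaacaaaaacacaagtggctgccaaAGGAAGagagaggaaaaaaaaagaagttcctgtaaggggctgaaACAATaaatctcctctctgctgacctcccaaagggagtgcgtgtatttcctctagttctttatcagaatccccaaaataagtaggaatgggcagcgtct
Gja1, chr10:56377050-56377349: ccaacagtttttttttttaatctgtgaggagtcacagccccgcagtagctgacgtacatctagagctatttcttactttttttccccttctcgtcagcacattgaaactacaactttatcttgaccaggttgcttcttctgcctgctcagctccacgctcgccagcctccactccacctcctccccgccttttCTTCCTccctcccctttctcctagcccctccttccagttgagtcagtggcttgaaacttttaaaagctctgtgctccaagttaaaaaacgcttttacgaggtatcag
Cd34, chr1:194938571-194938870: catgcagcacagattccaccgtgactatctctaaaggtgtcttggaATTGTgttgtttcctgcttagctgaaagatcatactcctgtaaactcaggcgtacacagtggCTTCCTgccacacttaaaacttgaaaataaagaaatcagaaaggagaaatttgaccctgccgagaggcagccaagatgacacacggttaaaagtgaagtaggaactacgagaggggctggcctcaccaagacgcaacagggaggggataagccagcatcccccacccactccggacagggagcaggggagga
The window of Emcn held 2 ETS matches, which begin 174 and 93 bases before the start, and a SOX match 49 bases before it. That of Cd34 held an ETS match 142 bases and a SOX match 204 bases before the start, and that of Gja1 an ETS match 57 bases before it. No match to these letters was found in the window of F11r. The table held promoters of 21 of the 39 genes, of which 11 had an ETS match and 13 a SOX match in at least 1 listed start. Of all 32851 promoters of the same length, 46.5% held an ETS match and 42.9% a SOX match, counted per start. The overlap of matches with other motifs was not examined.

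Among the transcription factors none was called with all 6 arrays, and their median difference was -0.075. Sox18, a SoxF factor of vessel and lymphatic development, was at -0.88, -0.33 and 0.088 on the MFAP5 arrays and -0.088, 0.46 and 0.15 on the Control arrays. Its difference of -0.55 ± 0.24 (SE, 3 arrays per group; adjusted p = 0.252 by limma) rested on a low MFAP5 array 1, and MFAP5 array 3 lay within the Control range. Sox17, the SoxF factor of arterial endothelium, had -0.22, -0.17 and -0.0018 on the MFAP5 arrays and 0.0018, 0.25 and 0.29 on the Control arrays. The groups of Sox17 did not overlap, but MFAP5 array 3 and Control array 1 lay almost together, and the difference was -0.31 ± 0.12 (adjusted p = 0.200). Sox7, the third SoxF member, had a difference of -0.046 with a 95% confidence interval of -0.33 to 0.24, and its groups overlapped. Without Control array 1, Sox17 was lower by limma at -0.40 (adjusted p = 0.0463), while Sox18 at -0.68 was not called (adjusted p = 0.133).

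No ETS factor was called with all 6 arrays. Erg, a factor that keeps endothelial genes on, was at -0.094, -0.10 and -0.019 on the MFAP5 arrays and -0.060, 0.33 and 0.10 on the Control arrays, a difference of -0.20 ± 0.12 (adjusted p = 0.401) in which Control array 1 lay among the MFAP5 arrays. Fli1, its close relative, which is also found in blood cells, had -0.034, 0.11 and 0.22 on the MFAP5 arrays and 0.23, -0.56 and -0.45 on the Control arrays. Control array 1 was the highest of all 6 for Fli1 and the other 2 controls were the lowest, so that the groups overlapped and the difference was 0.36 ± 0.20 (adjusted p = 0.350). Without Control array 1 it was 0.60 (adjusted p = 0.0186), and with Control array 1 as the sole control it was -0.13. Ets1, a factor of endothelium and lymphocytes, had -0.11, 0.040 and -0.079 on the MFAP5 arrays and 0.28, -0.13 and 0.0090 on the Control arrays, a difference of -0.10 (interval -0.39 to 0.18). Tal1, the basic helix-loop-helix factor of blood and endothelial development, stood at -0.080, 0.080 and 0.38 on the MFAP5 arrays and 0.10, -0.24 and -0.24 on the Control arrays. Like Fli1 it was lowest on Control arrays 2 and 3, and its difference was 0.26 ± 0.15 (adjusted p = 0.382). Prox1, the lymphatic factor, had the narrowest interval of the 39, with values of -0.047, 0.0058 and 0.076 on the MFAP5 arrays and -0.013, 0.0093 and 0.026 on the Control arrays, with a difference of 0.0041 (interval -0.21 to 0.22).

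Of the 14 junction genes 11 had a lower mean with MFAP5, or 78.6%, against 65.6% of all genes. An unadjusted p under 0.05 was found for 3 of these 11 and for 1 of the other 3. At that threshold 14.4% of all genes were lower and 5.33% higher. Pecam1, which encodes the adhesion molecule CD31 of endothelium, platelets and leukocytes, was at -0.48, -0.40 and 0.045 on the MFAP5 arrays and -0.045, 0.56 and 0.78 on the Control arrays. Control arrays 2 and 3 were far above the rest, while Control array 1 lay just below MFAP5 array 3. The difference was -0.71 ± 0.22, or 1.64-fold lower (SE, n = 3 per group; limma adjusted p = 0.132, interval -1.22 to -0.20), and -0.95 without Control array 1 (adjusted p = 0.0195). It had 1 probe set. Cdh5, which encodes VE-cadherin, the cadherin of endothelial adherens junctions, had -0.086, -0.14 and 0.015 on the MFAP5 arrays and -0.058, 0.48 and 0.11 on the Control arrays. Its groups overlapped through Control array 1, and the difference of -0.25 ± 0.15 was not called with or without that array (adjusted p = 0.379 and 0.109).

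The catenins that bind cadherins inside the cell differed in sign, with groups that did not overlap. Ctnnb1, beta-catenin, had -0.061, -0.037 and -0.11 on the MFAP5 arrays and 0.19, 0.050 and 0.10 on the Control arrays. Ctnnd1, p120-catenin, which holds VE-cadherin at the membrane, had 0.065, -0.018 and 0.12 on the MFAP5 arrays and -0.22, -0.073 and -0.18 on the Control arrays and was the only one of the 39 whose MFAP5 values all lay above the Control values. Their differences were -0.18 ± 0.095 and 0.21 ± 0.10 (adjusted p = 0.320 and 0.275). The 3 probe sets of each gene disagreed, at -0.45, -0.17 and 0.071 for Ctnnb1 and -0.046, 0.24 and 0.45 for Ctnnd1. Taken singly, all 3 probe sets of Ctnnd1 had overlapping groups, so its separation held for their mean only. For Ctnnb1 only the probe set at -0.45 was without overlap. For both genes Control array 1 was the control farthest from the MFAP5 arrays, and without it the differences were -0.15 and 0.18.

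At the tight junction, 2 of the 3 JAM genes had an unadjusted p under 0.05, and none of the genes for claudin-5, occludin and ZO-1 did. Over all genes 14.4% were lower and 5.33% higher at that threshold. F11r, which encodes JAM-A of endothelium, epithelium and platelets, was at -0.12, 0.030 and -0.32 on the MFAP5 arrays and 0.047, 0.65 and 0.29 on the Control arrays, without overlap. Its difference was -0.46 ± 0.17 (adjusted p = 0.177), its 2 probe sets were at -0.69 and -0.23, and without Control array 1 it was lower at -0.60 (adjusted p = 0.0450). Jam2, JAM-B, had -0.21, 0.013 and -0.16 on the MFAP5 arrays and 0.087, 0.37 and 0.28 on the Control arrays, also without overlap. The difference of Jam2 was -0.37 ± 0.12 (adjusted p = 0.136), and without Control array 1 it was lower at -0.45 (adjusted p = 0.0375). Of its 5 probe sets, at -0.58, -0.57, -0.40, -0.39 and 0.10, the 4 negative ones had an unadjusted p under 0.05. Jam3, JAM-C, had overlapping groups at -0.048, 0.045 and 0.12 on the MFAP5 arrays and -0.10, 0.30 and -0.073 on the Control arrays, and its difference was -0.0043 (interval -0.30 to 0.29). Esam, a JAM-related adhesion molecule of endothelium and platelets, was at -0.10 (-0.39 to 0.19).

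Cldn5, claudin-5, the main claudin of endothelial tight junctions, had -0.087, -0.089 and -0.036 on the MFAP5 arrays and 0.036, 0.084 and 0.17 on the Control arrays. Ocln, occludin, had -0.0035, -0.021 and -0.085 on the MFAP5 arrays and 0.036, 0.21 and 0.038 on the Control arrays. The groups of both genes did not overlap, but the distances were small, with differences of -0.17 ± 0.094 and -0.13 ± 0.10 (adjusted p = 0.362 and 0.490), and neither was called without Control array 1 (adjusted p = 0.172 and 0.287). Ocln had 2 probe sets, at -0.19 and -0.078, and taken singly each had overlapping groups. Tjp1, the scaffold ZO-1, stood at 0.25, 0.20 and -0.27 on the MFAP5 arrays and 0.20, -0.26 and -0.20 on the Control arrays, with MFAP5 array 3 as low as Control arrays 2 and 3, and a difference of 0.15 (-0.26 to 0.55).

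Among the connexins, Gja1 stood apart. Gja1, a gap junction protein also made by fibroblasts, smooth muscle and many other cells, was at 0.50, 0.35 and -0.11 on the MFAP5 arrays and 0.11, -0.82 and -0.64 on the Control arrays. Control arrays 2 and 3 were the lowest by a wide margin, and Control array 1 lay within the MFAP5 range. The difference was 0.69 ± 0.25, or 1.62-fold higher (adjusted p = 0.179, interval 0.13 to 1.26). Its 6 probe sets were all positive, at 0.39, 0.45, 0.49, 0.57, 1.02 and 1.24, and 4 of them had an unadjusted p under 0.05. The platform names 4 of the 6 as the x_at kind, whose probes can match other transcripts. Without Control array 1 Gja1 was higher at 0.97 (adjusted p = 0.0219), and with Control array 1 as the sole control it was at 0.14. The values of fibroblast markers on these arrays are given below. Gja4 and Gja5, the connexins of arterial endothelium, had differences of -0.020 (-0.28 to 0.24) and -0.050 (-0.28 to 0.18), with overlapping groups.

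**Figure D3:**
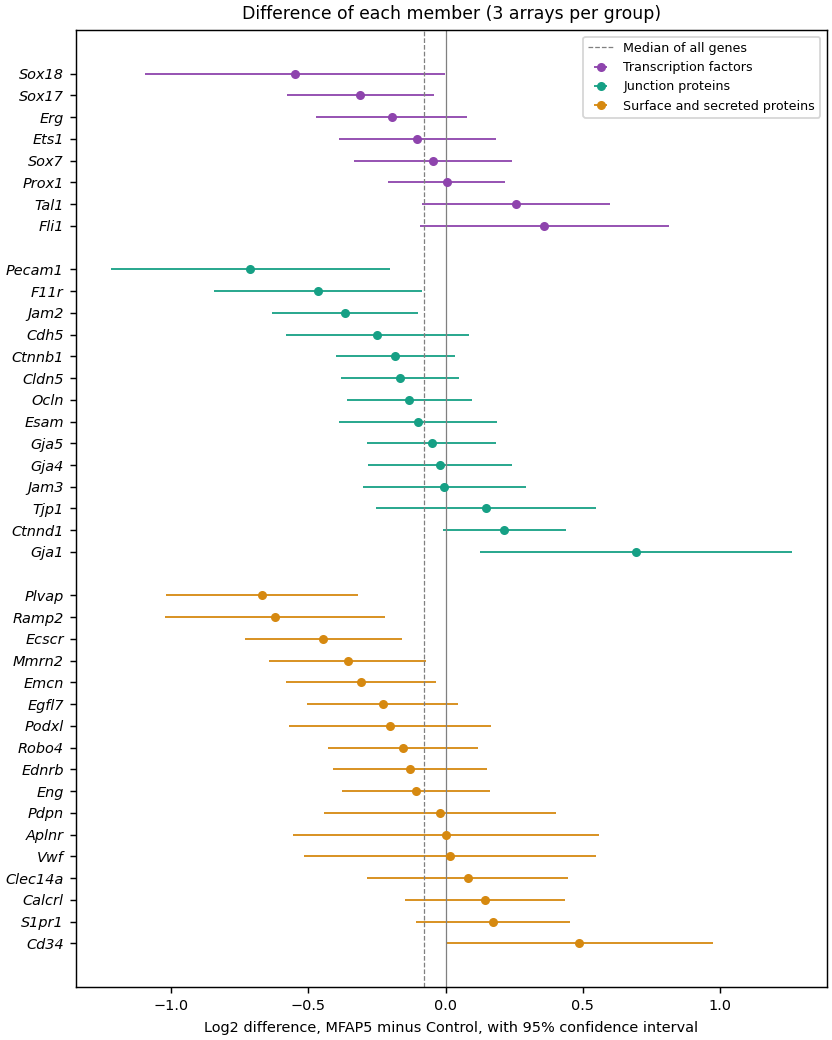
Log2 difference, MFAP5 minus Control, of each of the 39 genes with its 95% confidence interval from limma (3 arrays per group), in 3 blocks by role, with a solid line at 0 and a dashed line at the median of all genes (-0.079). Intervals of 12 genes leave 0 out before any adjustment, 10 of them below it, and the intervals run from 0.21 to either side of the difference for Prox1 to 0.57 for Gja1.

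The 17 surface and secreted genes included the lowest adjusted p of the set. Plvap, which encodes the protein of the diaphragms of fenestrae and caveolae, was at -0.081, -0.38 and -0.45 on the MFAP5 arrays and 0.081, 0.50 and 0.52 on the Control arrays, without overlap. Control arrays 2 and 3 again stood highest and Control array 1 next. Its difference was -0.67 ± 0.15, or 1.59-fold lower (SE, n = 3 per group; limma adjusted p = 0.0543, interval -1.02 to -0.32), and it was lower at -0.81 without Control array 1 (adjusted p = 0.0140). Over all 13 other settings Plvap ran from -0.81 to -0.38. With a variance trend in limma it was the 1 gene of the set that passed the threshold (adjusted p = 0.0392), where 3.3% of all genes were called lower.

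Ramp2 and Calcrl together form the adrenomedullin receptor, RAMP2 as the accessory protein that brings the receptor CALCRL to the surface. Ramp2 had -0.055, -0.72 and -0.32 on the MFAP5 arrays and 0.055, 0.30 and 0.41 on the Control arrays, without overlap and with MFAP5 array 2 lowest. Its difference was -0.62 ± 0.18 (adjusted p = 0.0999), and without Control array 1 it was lower at -0.72 (adjusted p = 0.0493). Calcrl had 0.052, 0.23 and -0.050 on the MFAP5 arrays and 0.11, -0.24 and -0.072 on the Control arrays, and its overlapping groups gave 0.14 (-0.15 to 0.44). The 1 named probe set of Ramp2 was used. A pair of further probe sets that the annotation assigns to Ramp2 together with another gene was left out.

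Ecscr, an endothelial surface protein of migration and sprouting, was at -0.084, -0.24 and -0.23 on the MFAP5 arrays and 0.084, 0.48 and 0.22 on the Control arrays, without overlap, a difference of -0.45 ± 0.13 (adjusted p = 0.0984). Mmrn2, an extracellular matrix protein of vessels that binds CLEC14A and CD93, had -0.033, -0.12 and -0.21 on the MFAP5 arrays and 0.026, 0.26 and 0.43 on the Control arrays, without overlap, a difference of -0.36 ± 0.12 (adjusted p = 0.171). Both were lower without Control array 1, at -0.53 and -0.46 (adjusted p = 0.0308 and 0.0339), and the 4 probe sets of Mmrn2 were all negative. Its binding partner Clec14a, a C-type lectin of angiogenic endothelium, had 0.50, -0.020 and -0.11 on the MFAP5 arrays and 0.12, -0.031 and 0.038 on the Control arrays. The highest of these was MFAP5 array 1, the other 5 lay between -0.11 and 0.12, and the difference was 0.080 (-0.29 to 0.45).

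Emcn, endomucin, a sialomucin of veins and capillaries, had 0.0016, -0.30 and -0.22 on the MFAP5 arrays and 0.18, 0.22 and -0.0016 on the Control arrays. MFAP5 array 1 and Control array 3 met at the middle, and the difference was -0.31 ± 0.12 (adjusted p = 0.206, 0.175 without Control array 1). Egfl7, a secreted factor of vessel tube formation, had -0.073, -0.12 and -0.052 on the MFAP5 arrays and -0.018, 0.37 and 0.086 on the Control arrays. Its groups did not overlap, but only Control array 2 stood clearly away, the difference was -0.23 ± 0.12 (adjusted p = 0.331) and its 4 probe sets were at -0.45, -0.38, -0.16 and 0.070.

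The sialomucins Cd34 and Podxl, ligands of L-selectin on some vessels, differed in sign. Cd34, found on endothelium, blood stem cells and some fibroblasts, was at 0.38, 0.59 and -0.14 on the MFAP5 arrays and 0.14, -0.38 and -0.39 on the Control arrays. MFAP5 array 3 lay among the controls, and the difference of 0.49 ± 0.21 was not called with or without Control array 1 (adjusted p = 0.253 and 0.0766). Podxl, podocalyxin, had -0.16, 0.020 and -0.020 on the MFAP5 arrays and -0.21, 0.42 and 0.24 on the Control arrays, with Control array 1 the lowest of all, and a difference of -0.20 ± 0.16 (adjusted p = 0.513).

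The remaining surface genes had overlapping groups and no unadjusted p under 0.05. Vwf, von Willebrand factor of endothelium and platelets, had 0.36, -0.47 and 0.074 on the MFAP5 arrays and -0.34, 0.34 and -0.074 on the Control arrays. It varied within both groups more than between them, and its difference was 0.015 (-0.52 to 0.55). Aplnr, the apelin receptor of sprouting vessels, was as wide, at 0.57, -0.52 and 0.084 on the MFAP5 arrays and 0.23, -0.020 and -0.084 on the Control arrays, with a difference of 0.0017 (-0.56 to 0.56) and its 2 probe sets at -0.25 and 0.25. Robo4, an endothelial receptor that steadies vessels, was at -0.15 (-0.43 to 0.12), and Eng, endoglin, a co-receptor for BMP9, at -0.11 (-0.38 to 0.16). The sphingosine-1-phosphate receptor gene S1pr1, which supports the barrier, was at 0.17 (-0.11 to 0.45), and the endothelin receptor gene Ednrb at -0.13 (-0.41 to 0.15), with 1 of its 3 probe sets at -0.46 and an unadjusted p under 0.05. Pdpn, podoplanin of lymphatic endothelium, mesothelium and fibroblasts, had 0.14, 0.19 and -0.52 on the MFAP5 arrays and -0.060, -0.13 and 0.060 on the Control arrays. Its difference was -0.020 (-0.44 to 0.40), with MFAP5 array 3 far below the rest.

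Set side by side, the 8 transcription factors had a median difference of -0.075 and the 31 junction, surface and secreted genes one of -0.13, where all genes had -0.079. The medians of the factors by array were -0.087, -0.048 and 0.066 on the MFAP5 arrays and 0.049, 0.032 and 0.017 on the Control arrays, so MFAP5 array 3 lay above every control. Those of the other 31 were -0.033, -0.062 and -0.085 on the MFAP5 arrays and 0.036, 0.10 and 0.060 on the Control arrays, without overlap. The medians of all genes by array were -0.043, -0.0077 and -0.029 on the MFAP5 arrays and -0.0093, 0.078 and 0.050 on the Control arrays, so part of each distance is shared by all genes. The groups did not overlap in 1 of 8 factors and 11 of the other 31 genes, or 12.5% and 35.5%, against 24.3% of all genes. No test of the factors against the other genes was made. The medians without Control array 1 were 0.0015 for the factors, -0.15 for the junction genes and -0.14 for the surface genes. That of all genes was then -0.11. Without Control array 1 limma called 1 factor higher and 1 lower, 1 junction gene higher and 3 lower, and 4 surface genes lower, or 25% of the factors, 28.6% of the junction genes and 23.5% of the surface genes, against 14.7% of all genes.

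The intervals give the differences in measured signal that these arrays leave room for. The centred values hold no level. A narrow interval near 0 could therefore not be told from a probe set near background. For 27 of the 39 genes the 95% confidence interval, not adjusted for the number of genes, lay within 1.5-fold in both directions, and for 34 within 2-fold. It reached 2-fold lower for 4 genes, Sox18, Pecam1, Plvap and Ramp2, and 2-fold higher for Gja1. The ends of the intervals moved with the arrays used. Without Control array 1 they reached -1.37 for Pecam1 and 1.42 for Gja1, while the lower end for Robo4 went from -0.43 to -0.31. The median within-group SD of the 39 was 0.13 on the MFAP5 arrays and 0.18 on the Control arrays, and that of all genes 0.12 and 0.15.

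More than 1 probe set was available for 22 of the 39 genes, and in 11 of them the probe sets had both signs. Tested singly, none of the 79 probe sets was called by limma, against 3.28% of all probe sets, and 20 had an unadjusted p under 0.05, where the share over all probe sets was 18.7%. These 20 included 4 of Jam2, 4 of Gja1 and 2 of Egfl7. The gene means of Ets1, Sox7, Prox1, Ctnnb1, Ctnnd1, Jam2, Jam3, Egfl7, Aplnr, Calcrl and Ednrb thus average probe sets of both signs.

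**Figure D4:**
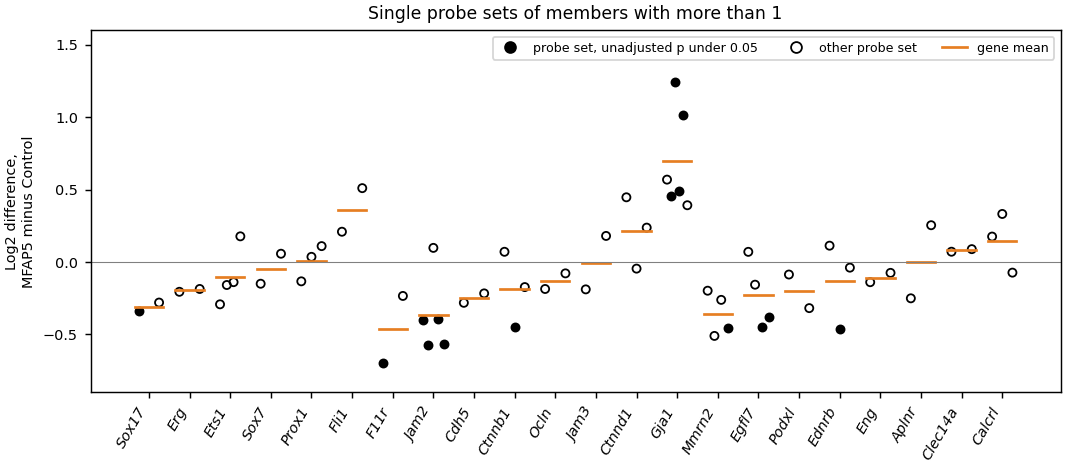
Log2 difference, MFAP5 minus Control, of each probe set (points, filled where the unadjusted limma p is under 0.05) of the 22 genes with more than 1, with the gene mean as an orange line. All 6 probe sets of Gja1 lie above 0 and 4 of 5 of Jam2 below it, while those of Ctnnb1, Ctnnd1 and Aplnr lie on both sides of 0.

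Other genes of the endothelium and of junctions, from lists outside the 39, were set beside them. Of 42 measured endothelial genes 4 were lower and none higher by limma, with a median of -0.10 and, at an unadjusted p under 0.05, 10 lower and 4 higher. Over all genes limma called 2.79% lower and 0.759% higher, with a median of -0.079. At an unadjusted p under 0.05, 14.4% of all genes were lower and 5.33% higher. Mcam, the adhesion molecule CD146 of endothelium and pericytes, had -1.79, -1.82 and -0.69 on the MFAP5 arrays and 0.69, 0.99 and 0.74 on the Control arrays, and fell by 2.24 on the log2 scale (SE 0.28, n = 3 per group; adjusted p = 0.00359). It was called whichever single array was left out, at -2.61 to -2.05. Nos3, endothelial nitric oxide synthase, had -0.81, -0.44 and -0.31 on the MFAP5 arrays and 0.31, 0.77 and 0.81 on the Control arrays. It fell by 1.15 (SE 0.18; adjusted p = 0.0102), a call that was lost without Control array 2 or 3, where the differences were -1.08 and -1.06 (adjusted p = 0.0617 and 0.0637). Apln, apelin, the ligand of the receptor encoded by Aplnr, had -0.37, -0.19 and -0.21 on the MFAP5 arrays and 0.19, 0.49 and 0.32 on the Control arrays and fell by 0.59 (adjusted p = 0.0296). Of the 6 single arrays, leaving out any but Control array 1 ended the call of Apln, with differences between -0.62 and -0.51 and adjusted p between 0.0633 and 0.126. Cd36, a fatty acid receptor of capillary endothelium, adipocytes and macrophages, was at -1.62, -1.14 and -0.22 on the MFAP5 arrays and 0.89, 0.41 and 0.27 on the Control arrays. It fell by 1.52 (adjusted p = 0.0430), and the call held only without MFAP5 array 3 when single arrays were left out, with differences between -1.64 and -1.20 and adjusted p between 0.0571 and 0.142 for the other 5. All 4 genes were without overlap between groups. Of the 42 genes 9 lay wholly lower with MFAP5 and 4 wholly higher. Over all genes these shares were 17.8% and 6.51%. The 4 higher ones, Adgrf5, Aqp1, Foxc2 and Elk3, were not called. Their differences were 1.39, 1.31, 0.74 and 0.36 (limma adjusted p = 0.145, 0.167, 0.0911 and 0.199). The first 2 varied widely within the MFAP5 group and were highest on MFAP5 array 2. On MFAP5 arrays 1, 2 and 3 Adgrf5 was at 0.76, 2.31 and 0.17 and Aqp1 at 0.98, 2.30 and 0.078. Of 35 measured junction genes none was called by limma, 6 were lower and none higher at an unadjusted p under 0.05, and the median was -0.10. Without Control array 1, 5 of the 42 endothelial genes were lower and 1 higher, and 3 of the 35 junction genes were lower and 1 higher. That fit called 10.5% of all genes lower and 4.18% higher.

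Markers of other cell types were measured on the same arrays. Of 10 adipocyte markers 9 were lower by limma, and their medians by array were -3.37, -2.48 and -1.04 on the MFAP5 arrays and 1.16, 1.39 and 1.33 on the Control arrays. Of 6 neutrophil markers 4 were lower, with medians of -0.46, -0.45 and -0.31 on the MFAP5 arrays and 0.30, 0.67 and 0.49 on the Control arrays. Of 8 fibroblast markers 1, Pi16, was lower (-0.93, adjusted p = 0.0336). The other 7 had a higher mean with MFAP5 and were not called, and the median difference of the list was 0.27. The list medians were 0.17, 0.10 and -0.0073 on the MFAP5 arrays and 0.030, -0.25 and -0.21 on the Control arrays. These medians were lowest on Control arrays 2 and 3. So were 5 of the 39 genes, Gja1, Cd34, Fli1, Tal1 and Calcrl, and 2113 of all 18193 genes. Of 8 pericyte and smooth muscle markers 1, Kcnj8, was lower (-0.90, adjusted p = 0.0145), with medians of -0.13, -0.072 and -0.028 on the MFAP5 arrays and 0.023, 0.077 and 0.038 on the Control arrays. None of the measured markers of macrophages (8), lymphocytes (4), mesothelium (6), epithelium (6), platelets (4) and lymphatic endothelium (4, Prox1 and Pdpn among them) was called, with list medians of -0.043, -0.12, -0.11, -0.091, -0.089 and -0.042. The values are relative, so which of these markers were near 0 could not be read. The log2 distance of the 3' from the 5' probe set of beta-actin was 0.14, 0.082 and 0.036 on the MFAP5 arrays and -0.0048, -0.053 and -0.032 on the Control arrays, without overlap (exact permutation test, two-sided, p = 0.1, the smallest that 3 against 3 arrays can give). The part of other cells and of RNA quality in the differences of the endothelial genes was not tested.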

How the data were processed

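Per the labels' protocols, total RNA was amplified into biotin-labelled cRNA for 1-colour arrays, and the submitters' processing notes name MAS5. Settings and normalization between arrays: not given in the sources used here. Values in the authors' deposited table were read as log2 signals, centred on each probe set's median of the 6 arrays, the widest probe set spanning 8.24 units. A natural log was not excluded, and folds would then be too small. Centring left no level, so no filter on dim probe sets or background correction was possible, and with 1 probe set the middle pair of arrays is symmetric around 0. The number of arrays limits the precision.

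Of 45101 probe sets 64 controls were left out. The platform annotation gave 34945 of the rest 1 symbol (updated through a RefSeq table, GRCm38.p6), 932 several, and 9160 were not listed. All 18193 genes were fitted with limma (version 3.58.1, R 4.3.3; lmFit and eBayes, no variance trend, two-sided, adjusted by Benjamini-Hochberg, threshold 0.05), after a test on simulated data. The members and lists were chosen with earlier results of these data known. Every gene of the set is named, and of the other endothelial and junction lists those past the threshold, at most 6 of each. Of the marker lists of other cell types, Pi16 and Kcnj8 are named, while the called adipocyte and neutrophil markers are given as counts only. The uncalled endothelial genes whose MFAP5 values lay wholly above the Control values are named too. Of the listed genes, 11 had no probe set with 1 symbol and are not analysed here.

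Alternatives were quantile normalization, array median centring, a variance trend, the replicate number as a block, the probe set of largest SD, the spike-in level as a covariate and each array left out. Chosen after seeing the data were Control array 1 as the sole control and a fit of single probe sets.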

Additional observations from a re-analysis of the deposited data

How the results depend on the processing

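With quantile normalization, array median centring, the probe set of largest SD or the spike-in covariate, limma called none of the 39 genes, with 11, 11, 10 and 9 at an unadjusted p under 0.05, or 28.2%, 28.2%, 25.6% and 23.1%, against 18.1%, 19.0%, 21.3% and 15.2% of all genes. With a variance trend it called 1 lower, Plvap. With the replicate number as a block it called 1 lower, Pecam1 (adjusted p = 0.0309). The numbers do not pair the samples in the labels, and deviations of same-numbered arrays from their group means correlated at 0.18, 0.055 and 0.072 over genes, each MFAP5 array best with the Control array of its own number. The block called 153 genes higher and 590 lower over all genes, where the fit without it called 138 and 508. Leaving out single arrays, the number of the 39 called higher ran from 0 to 2 and lower from 0 to 8, both highest without Control array 1. Over all genes the number higher ran from 14 to 760 and lower from 205 to 1914. The spike-in covariate gave 48 higher and 316 lower, the probe set of largest SD 223 higher, and Control array 1 as the sole control 0 higher and 0 lower with 1526 at an unadjusted p under 0.05. The median of the junction genes, -0.12, was -0.074 with quantile normalization, -0.082 with median centring and -0.061 with the spike-in covariate. With Control array 1 as the sole control it was -0.048, where that of the surface genes, -0.13, was -0.065. The median of all genes, -0.079, moved as well. In the same order of settings it was -0.036, -0.044, -0.047 and -0.022. Leaving out single arrays moved the junction median between -0.15 and -0.074 and the transcription factor median between -0.13 and 0.0015. That of all genes moved between -0.11 and -0.054. No cause was tested for these shifts. Signs of uncalled genes turned in 0 to 5 of the 39 under the planned settings and in 9 with Control array 1 as the sole control. Each of the 12 genes with an unadjusted p under 0.05 kept its sign under all 13 settings. These genes were picked on the same arrays, so this is no separate support. The variance trend and the block could not change a difference here. In the 7 of these genes whose groups do not overlap, leaving out arrays could not turn the sign. A filter on dim probe sets and a background correction were not possible on centred values.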
